A study of Mus musculus with 12 samples.

Results

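The 5 cultures of CD8+ NKT-like cells were compared with 2 samples of activated CD8+ T cells, to ask what long culture in high-dose IL-2 added to or removed from the profile that activation alone gave the same lineage. All cells were splenic T cells of female C57BL/6 mice aged 8 to 12 weeks, with no transgene or deletion named in the labels. The NKT-like cells, labelled as expanded CD8 T cells with suppression function, were naive CD8+ cells grown on beads coated with anti-CD3 and anti-CD28 in high-dose IL-2, with the beads taken off at the end. The activated cells, labelled stimulated CD8, had been stimulated with anti-CD3 and anti-CD28 antibodies in solution at low dose, for a length of time that the sources used here do not give. The groups thus differed at once in the form of the stimulus, in the IL-2 described and in the length of culture, and these cannot be told apart. The 7 arrays were part of a series of 12, in which 2 arrays of naive CD8+ cells and 3 of CD4+ cells cultured by the same protocol supplied further reference levels. Every probe set other than the array's own controls was a member, which came to 45037 of 45101 probe sets on an Affymetrix array of the whole mouse genome and to 18193 named genes.

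A naive CD8+ cell that meets antigen divides, secretes IL-2 for its own use and arms itself with cytotoxic granules. The granules hold perforin, which opens the target membrane, and granzymes, serine proteases that enter through it. IL-2 signals through JAK kinases and STAT5, and strong IL-2 signalling is known to favour effector over memory fates, under the opposing pairs of transcription factors Blimp-1 (Prdm1) and Bach2, and Id2 and Id3. T cells kept in IL-2 can also acquire receptors otherwise known from natural killer (NK) cells.

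Values are RMA-normalized log2 signals, and each row of values below runs over NKT-like replicates 1 to 5 and then activated replicates 1 and 2. Fold changes are 2 raised to the difference between the group means of those log2 values. They are given with that log2 difference, its standard error (SE) and the Storey q of a limma fit over all 12 arrays. A gene was called at q of 0.01 or less, through 1 probe set per gene, and "higher" and "lower" mean higher or lower in NKT-like than in activated cells. The study describes the NKT-like cultures as independent. For the activated samples nothing says so, and the q-values then measure the spread between arrays, which may be technical.

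The lineage markers did not go against the labels. Cd8b1, a CD8 coreceptor chain, read 10.60, 11.56, 11.91, 11.89 and 12.09 in NKT-like and 11.57 and 11.06 in activated cells. Cd8a, the other chain, read 9.94, 11.57, 11.04, 10.64 and 11.37 in NKT-like and 10.56 and 10.05 in activated cells. Neither gene was called (q = 0.5 and 0.25), and the groups overlapped for both. Cd4 read 6.88, 6.79, 7.08, 6.76 and 7.02 in NKT-like and 6.55 and 7.20 in activated cells, against a mean of 10 in the cultured CD4+ cells. Cd3e, a chain of the T cell receptor complex, was 1.99-fold higher (log2 difference 1.00 ± 0.19 SE, q = 0.0062), and 9 of the 12 arrays ended that call when left out.

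The activated arrays resembled each other less than the NKT-like arrays did, and the counts below turn on them. Over all probe sets the median SD was 0.235 between the activated arrays and 0.129 among the NKT-like arrays. Activated replicate 2 had a compressed scale, with an SD over its probe sets of 1.799 and a 95th percentile of 9.99, where activated replicate 1 had 2.004 and 10.49. The activated arrays correlated with each other at r = 0.974 over probe sets, and activated replicate 1 reached 0.975 with an array of another group. Markers of other cells moved with the groups in part. The mean over 13 B cell and plasma cell markers lay between 6.01 and 6.34 on the NKT-like arrays and at 6.50 and 6.66 on the activated arrays, and that over 9 MHC class II genes between 6.19 and 6.35 and at 6.96 and 6.63. The limma fit called none of these genes (at an unadjusted p under 0.05, 4 of the B cell markers, 30.8%, and 2 of the class II genes, 22.2%, were lower and none higher, where 9.79% of all genes were lower and 14.2% higher), though 2 of the B cell markers became lower without activated replicate 1. The B cell receptor subunit genes Cd79a and Cd79b averaged 6.08 and 5.91 in NKT-like and 6.07 and 6.93 in activated cells. Means over 11 red cell markers (6.70 to 6.89 against 6.89 and 6.99) and 19 myeloid markers (6.15 to 6.29 against 6.10 and 6.50) lay close to each other, again with no call (at an unadjusted p under 0.05, 3 red cell markers and 1 myeloid marker were lower and 1 of each higher). In bulk samples fewer cells of a type and less RNA per cell cannot be told apart. RNA integrity, read as the log2 difference between the 3' and 5' control probe sets of Gapdh, was 1.73, 1.6, 1.42, 1.28 and 0.12 for the NKT-like and 1.31 and 1.54 for the activated arrays. For actin that difference was 0.14, 0.29, 0.08, 0.2 and -0.01 for the NKT-like and 0.38 and 0.62 for the activated arrays. The groups did not overlap for actin, and the part of RNA integrity in the calls was not tested.

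At q of 0.01 or less and at least a 2-fold change, 831 probe sets (1.85% of those tested) were higher and 258 (0.573%) lower in NKT-like cells, so that 76.3% of the calls were higher. After quantile normalization the split moved to 822 higher and 442 lower, or 65.0% higher. Among genes, with no minimum fold, 607 were higher (3.34% of genes) and 170 lower (0.934%), while the median difference over all genes was -0.03. The counts of list members below are to be read beside these shares. The changes reached far: 55 genes were higher and 12 lower by 10-fold or more, and another 71 and 16 by 5- to 10-fold. The share of higher calls depended on the activated arrays. Without activated replicate 1, 789 genes were higher and 350 lower. Without activated replicate 2, 132 were higher and 118 lower. Of the 607 higher genes, 126 (20.8%) kept their call when either activated array was left out in turn, as did 60 of the 170 lower genes (35.3%). Each gene named below kept its call when any 1 of the 12 arrays was left out, unless an array or a number of omissions that ended the call is given. Of the 123 called named genes, 47 had other probe sets, and for 20 of these none of them was called. In 12 of the 123, the lower group lay under the 25th percentile of its arrays throughout, so that its fold depends on signals near the bottom of the scale. The words "without either activated array" mean with each of them left out in turn.

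**Figure D1:**
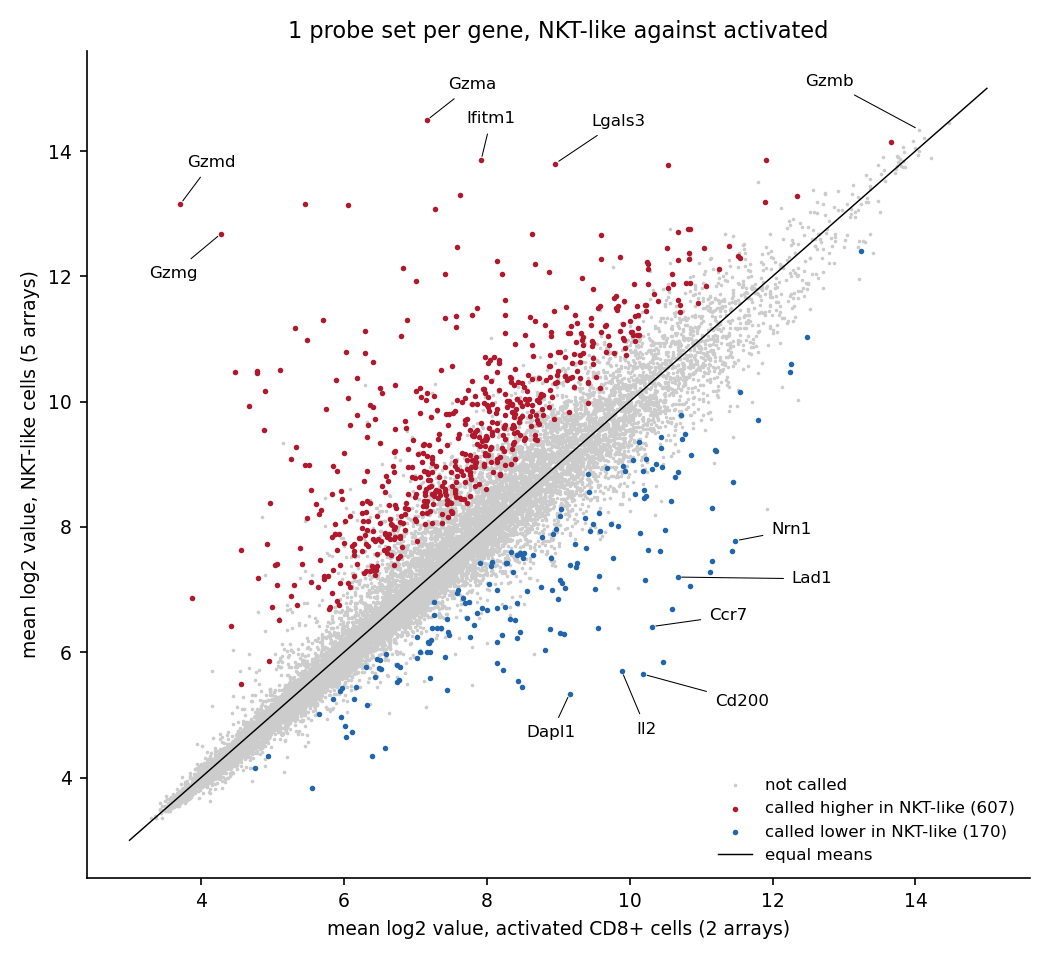
Mean log2 signal of every gene in activated (x axis, n = 2) and NKT-like (y axis, n = 5) cells, 1 point per gene, with the 607 genes called higher and the 170 called lower in colour. The called genes lie away from the diagonal, with several granzymes far above it.

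**Figure D2:**
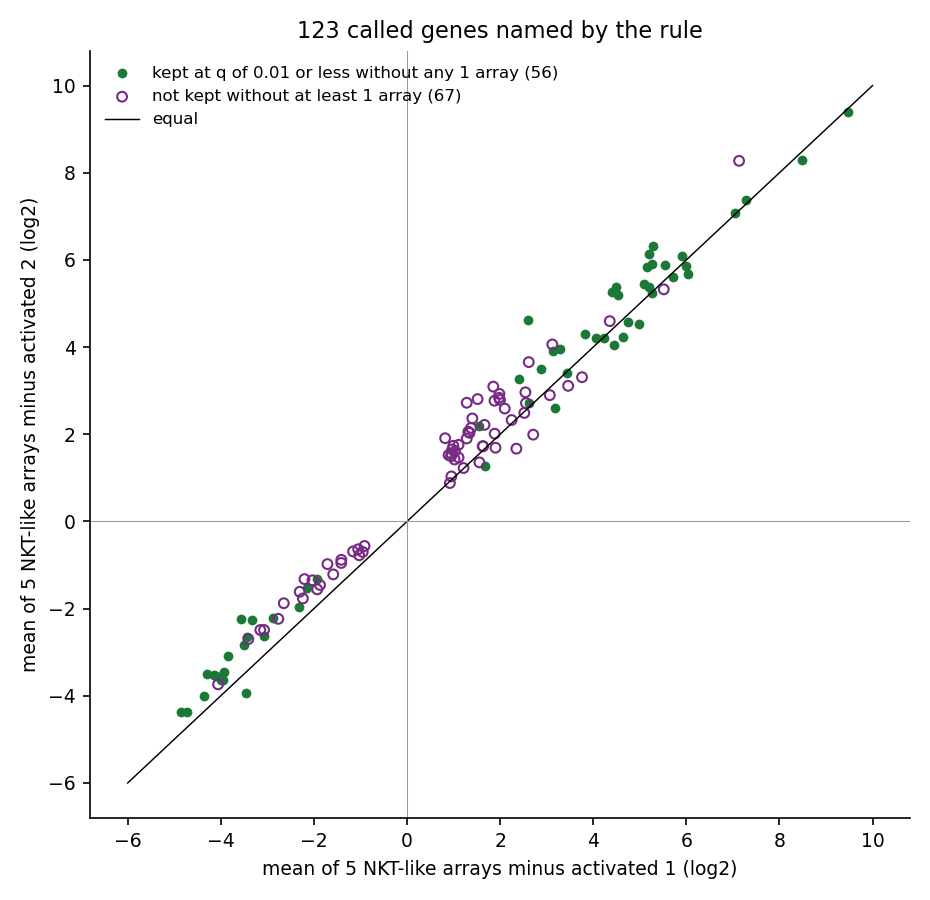
For the named called genes, the NKT-like mean minus activated replicate 1 (x axis) and minus activated replicate 2 (y axis), both as log2 differences. Filled points are the 56 of 123 genes whose call no single left-out array ended, and open points the 67 that lost it at least once.

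Most cytotoxic granule protease genes were higher. Of 11 granzyme and perforin genes measured, 8 were higher and none lower, with a median difference of 5.67 log2 units against -0.03 over all genes. Without activated replicate 1 the count was again 8, and without activated replicate 2 it was 6. Gzmd read 13.14, 13.24, 12.92, 12.93 and 13.53 in NKT-like and 3.67 and 3.75 in activated cells. Gzmg read 11.78, 12.53, 13.07, 12.66 and 13.36 in NKT-like and 4.19 and 4.38 in activated cells. In both genes activated cells stood at the level of naive cells (means 3.50 and 4.32), far below every NKT-like culture. Gzmd was 696-fold higher (log2 difference 9.44 ± 0.60 SE, q = 6.7e-06), and its other probe set gave 744-fold. These folds are ratios of signals, and where 1 side lies near an end of the scale they do not measure a ratio of transcripts. No detection calls were used here, and the lowest values on the arrays were 3.18 to 3.3. At most 1.66% of probe sets lay below Gzmd on either activated array and at most 9.13% below Gzmg, so neither can be told from background there and the order of these differences was not read. Gzmg was 337-fold higher (log2 difference 8.40 ± 0.55 SE, q = 7.7e-06). Gzma, the tryptase granzyme, read 14.37, 14.52, 14.55, 14.51 and 14.49 in NKT-like and 7.21 and 7.11 in activated cells, so that the activated cells lay below the naive mean of 8.55 while the NKT-like values lay at or near the highest on each array (14.51 to 14.55), which limits both their spread and the fold. It was 161-fold higher (log2 difference 7.33 ± 0.56 SE, q = 2.3e-05). Gzmc (208-fold higher, log2 difference 7.70 ± 1.10 SE, q = 0.0015) read 13.10, 13.30, 12.78, 13.04 and 13.55 in NKT-like and 6.02 and 4.88 in activated cells, and lost its call without activated replicate 2, the lower of the activated arrays. Gzme (135-fold higher, log2 difference 7.07 ± 0.64 SE, q = 7.2e-05), Gzmf (50.8-fold higher, log2 difference 5.67 ± 0.63 SE, q = 2.8e-04) and Gzmk (39.2-fold higher, log2 difference 5.29 ± 0.31 SE, q = 5.3e-06) did not overlap between the groups either, and at most 17.8% of probe sets lay below Gzmf on either activated array. Gzmf varied most among the cultures, from 9.38 to 12.33. Gzmc to Gzmg are close paralogs in 1 cluster, the Gzme probe set is of a kind that can bind several transcripts, and how far their signals are separate was not tested.

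Gzmb, the best known of these proteases, was the exception. It read 14.33, 14.32, 14.32, 14.38 and 14.37 in NKT-like and 14.06 and 14.04 in activated cells, close to the highest value on the arrays (14.41 to 14.55), against a naive mean of 7.63. Its difference was not called (1.22-fold, q = 0.41), and a signal so near the top of the scale leaves little room for one. Gzmm read 6.87, 6.97, 7.05, 6.92 and 7.0 in NKT-like and 6.79 and 6.75 in activated cells and was not called (q = 0.39), nor was Gzmn (q = 0.055). Prf1, which encodes perforin, read 11.49, 11.61, 12.79, 11.89 and 13.45 in NKT-like and 8.44 and 7.84 in activated cells. The groups did not overlap, and Prf1 was 17.2-fold higher (q = 5.9e-04). That call ended without activated replicate 2, and the second Prf1 probe set gave 1.06-fold and no call.

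**Figure D3:**
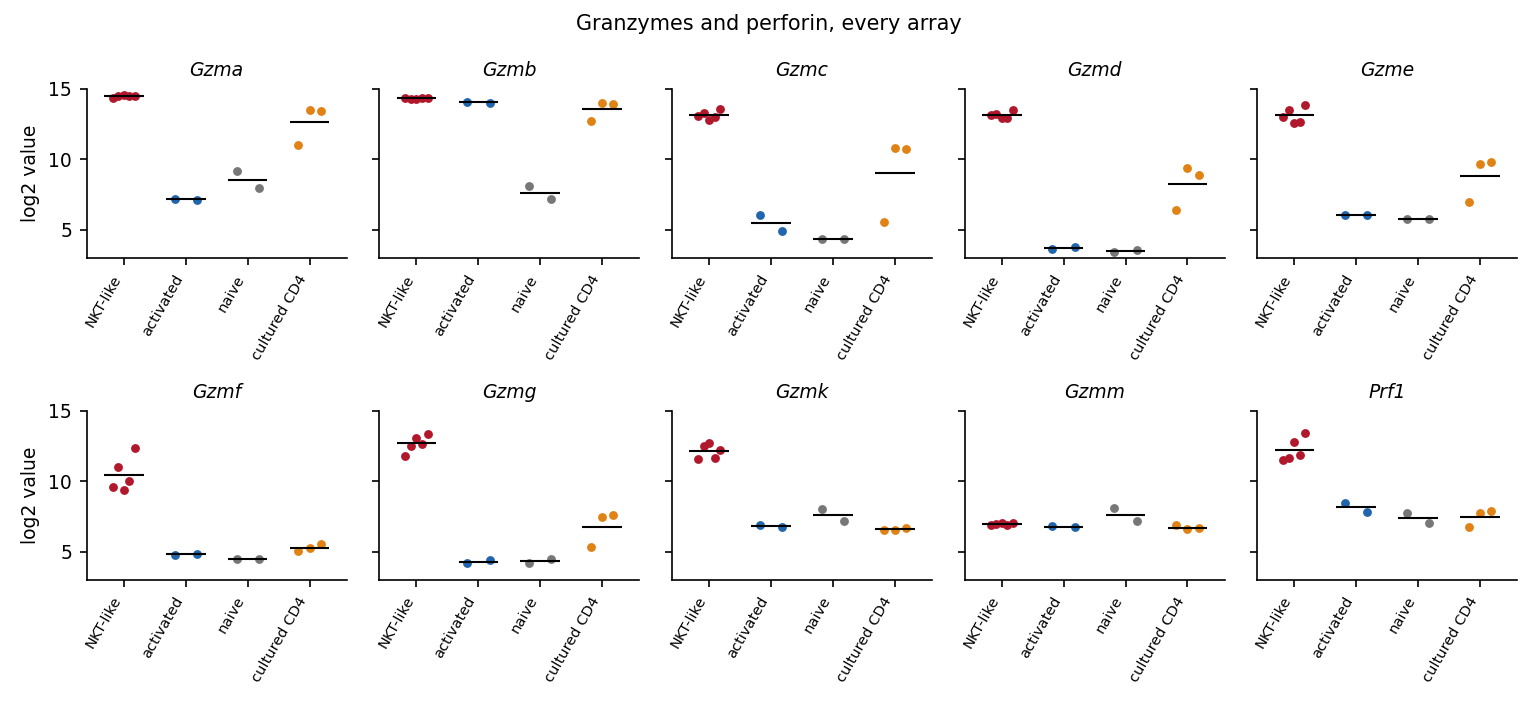
Log2 signal of 10 granule genes on every array of the 4 groups (NKT-like n = 5, activated n = 2, naive n = 2, cultured CD4 n = 3); points are arrays and bars group means. Gzmb lies at 14.04 to 14.38 in both activated and NKT-like cells, while Gzmd lies at 3.67 and 3.75 in activated and at 12.92 to 13.53 in NKT-like cells.

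The promoters of Gzmb, which both groups expressed, and of the most changed members of the neighbouring cluster are set out because they differ in letters that factors of T cells are known to read. The windows hold the 250 bases before and 50 bases after the start site in RefSeq (GRCm38.p6), all on the minus strand of chromosome 14 and written 5' to 3'. Capitals mark matches on either strand to a Runx motif (TGTGGT) and to an AP-1 motif (TGANTCA), which do not overlap here.
Gzmb (chr14:56262285-56262584): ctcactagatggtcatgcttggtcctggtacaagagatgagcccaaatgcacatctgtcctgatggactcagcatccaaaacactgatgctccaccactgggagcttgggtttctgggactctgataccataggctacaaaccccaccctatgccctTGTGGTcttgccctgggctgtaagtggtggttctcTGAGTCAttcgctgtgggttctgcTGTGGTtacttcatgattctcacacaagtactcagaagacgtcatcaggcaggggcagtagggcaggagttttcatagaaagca
Gzmc (chr14:56234608-56234907): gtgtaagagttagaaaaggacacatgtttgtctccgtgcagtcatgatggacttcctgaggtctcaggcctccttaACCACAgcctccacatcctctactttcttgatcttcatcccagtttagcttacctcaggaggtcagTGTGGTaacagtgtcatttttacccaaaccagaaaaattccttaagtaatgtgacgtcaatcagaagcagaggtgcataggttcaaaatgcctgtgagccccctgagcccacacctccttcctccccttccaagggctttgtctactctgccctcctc
Gzmg (chr14:56159530-56159829): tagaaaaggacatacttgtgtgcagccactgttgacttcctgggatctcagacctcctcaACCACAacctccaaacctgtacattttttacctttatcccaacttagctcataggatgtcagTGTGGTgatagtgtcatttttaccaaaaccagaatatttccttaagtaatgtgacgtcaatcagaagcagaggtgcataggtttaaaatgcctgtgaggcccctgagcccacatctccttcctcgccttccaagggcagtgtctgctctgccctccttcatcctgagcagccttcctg
Gzmd (chr14:56132544-56132843): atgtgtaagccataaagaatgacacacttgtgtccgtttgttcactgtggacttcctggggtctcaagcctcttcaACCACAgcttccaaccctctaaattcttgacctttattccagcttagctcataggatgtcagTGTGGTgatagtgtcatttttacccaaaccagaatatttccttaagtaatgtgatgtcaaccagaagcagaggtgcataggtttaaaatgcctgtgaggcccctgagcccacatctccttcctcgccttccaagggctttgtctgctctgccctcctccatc

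Each of the 6 promoters examined, those of Gzmb, Gzmc, Gzmd, Gzme, Gzmf and Gzmg, held a pair of Runx matches. Among all 32851 promoters of this length, 16.8% held at least 1 and 1.81% at least 2. In the cluster from Gzmc to Gzmg the pair stood on opposite strands at like places, as in Gzmd at -174 to -169 and -112 to -107 from the start site. In Gzmb both stood on the gene's own strand, at -93 to -88 and -34 to -29, with an AP-1 match (TGAGTCA) between them at -58 to -52. That AP-1 motif, found in 7.81% of all promoters, was in none of the other 5 windows. A STAT motif (TTCNNNGAA), not put in capitals and found in 8.3% of all promoters, likewise matched only Gzmb, at +38 to +46 (TTCATAGAA). The 5 cluster promoters were 74.9% to 93.4% identical to each other in global alignment, and 44.4% to 50.2% identical to that of Gzmb. These are matches of letters, and binding was not measured.

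Genes that pack, release or guard against the granules moved less. Of 23 measured, 4 were higher and none lower (median 0.71), and the 4 calls ended without activated replicate 2. They were the cathepsin genes Ctsd (6.22-fold higher, log2 difference 2.64 ± 0.41 SE, q = 0.0023) and Ctsw (3.83-fold higher, log2 difference 1.94 ± 0.35 SE, q = 0.0054), the serpin gene Serpinb6a (5.48-fold higher, log2 difference 2.45 ± 0.32 SE, q = 8.0e-04) and Cst7 (5.26-fold higher, log2 difference 2.39 ± 0.47 SE, q = 0.0074), which encodes the cathepsin inhibitor cystatin F. For Ctsw and Cst7, leaving out any of several other arrays also ended the call. Ctsw averaged 11.52 in NKT-like, 9.59 in activated and 10.88 in naive cells. Serpinb9, which encodes the inhibitor of granzyme B, read 10.70, 10.68, 10.67, 10.96 and 11.26 in NKT-like and 10.50 and 10.24 in activated cells and was not called (q = 0.38). Ctla2b, an inhibitor-like relative of the cathepsins, was 48.0-fold higher (log2 difference 5.59 ± 0.35 SE, q = 6.7e-06).

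Genes that carry the signals of NK receptors were higher in part. Of 13 adaptors and signalling genes, 6 were higher and none lower (median 1.42). Fcer1g, the signalling chain of Fc and several NK receptors, read 10.73, 11.39, 9.88, 11.39 and 11.80 in NKT-like and 6.60 and 6.99 in activated cells. All 5 cultures lay well above the activated cells, which were close to the naive mean of 7.37, and the gene was 18.9-fold higher (log2 difference 4.24 ± 0.39 SE, q = 8.6e-05). Pilrb1, an activating paired receptor, was 7.38-fold higher (log2 difference 2.88 ± 0.32 SE, q = 3.1e-04), and Plcg2, a phospholipase downstream of such receptors, 2.76-fold higher (log2 difference 1.47 ± 0.13 SE, q = 5.4e-05). Vav3 was 4.01-fold higher (log2 difference 2.00 ± 0.31 SE, q = 0.0024) and lost its call without activated replicate 2. Tyrobp, which encodes the adaptor DAP12, read 7.67, 7.86, 6.65, 8.80 and 7.62 in NKT-like and 6.11 and 5.88 in activated cells, which do not overlap, but was not called (q = 0.020).

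Of 24 killer lectin-like and other NK receptors, 3 (12.5%) were higher and 1 (4.17%) lower, with a median of 0.24, and none of the 4 calls held without either activated array. At an unadjusted p under 0.05 in the limma fit, 10 (41.7%) were higher and 1 (4.17%) lower, against 14.2% and 9.79% of all genes. Klrd1, which encodes CD94, read 12.14, 12.50, 10.21, 10.07 and 11.99 in NKT-like and 8.26 and 7.32 in activated cells. The NKT-like cultures fell into higher values in replicates 1, 2 and 5 and lower values in replicates 3 and 4, all above the activated cells, and the gene was 12.0-fold higher (log2 difference 3.59 ± 0.65 SE, q = 0.0052), a call that 5 of the 12 single omissions ended. Klrd1 was also high in naive cells, at a mean of 11.40. Cd244a, a SLAM family receptor, was 4.88-fold higher (log2 difference 2.29 ± 0.40 SE, q = 0.0043), and its other probe set gave 23.4-fold. Klrg1 was 4.02-fold higher (log2 difference 2.01 ± 0.40 SE, q = 0.008), and 10 of the 12 arrays ended its call when left out. Crtam, a receptor induced by activation, was 4.80-fold lower (log2 difference -2.26 ± 0.43 SE, q = 0.0068), and 8 arrays ended its call. Of 9 genes on the NK cell marker list, Khdc1a (25.4-fold higher, log2 difference 4.66 ± 0.39 SE, q = 4.4e-05), the transcription factor gene Eomes (3.65-fold higher, log2 difference 1.87 ± 0.21 SE, q = 2.8e-04) and Fcgr3 (1.87-fold higher, log2 difference 0.90 ± 0.18 SE, q = 0.0095) were higher, the last with a call that 10 of the 12 single omissions ended. Ncr1, which encodes the NK receptor NKp46, read 6.21, 6.09, 6.00, 6.12 and 6.16 in NKT-like and 6.03 and 6.36 in activated cells, with the groups overlapping. Klra8 averaged 4.91 and 4.92. The mean over the NK markers lay between 7.43 and 7.78 in NKT-like and at 6.39 and 6.53 in activated cells, and its part in the granzyme and adaptor values was not tested. Among 4 gamma-delta T cell markers the receptor segment Trgv4 was 6.74-fold higher (log2 difference 2.75 ± 0.34 SE, q = 5.9e-04), a call that ended without activated replicate 2.

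Ifitm1, Ifitm2 and Ifitm3, which are interferon-induced genes, were higher. They encode small membrane proteins that restrict the entry of viruses. Ifitm1 read 13.62, 13.88, 13.91, 13.85 and 13.99 in NKT-like and 7.85 and 7.99 in activated cells. Ifitm2 read 12.25, 12.32, 12.50, 12.71 and 12.52 in NKT-like and 7.92 and 7.26 in activated cells. Ifitm3 read 11.46, 11.77, 11.93, 12.27 and 12.23 in NKT-like and 7.45 and 6.56 in activated cells. In each, all cultures lay far above both activated arrays, whose values were near the naive means of 7.36, 6.95 and 7.33. Ifitm1 was 61.1-fold higher (log2 difference 5.93 ± 0.29 SE, q = 1.4e-06), Ifitm2 29.2-fold higher (log2 difference 4.87 ± 0.37 SE, q = 2.4e-05) and Ifitm3 30.4-fold higher (log2 difference 4.93 ± 0.41 SE, q = 4.4e-05). The other 4 family members measured were not called, with mean levels between 6.34 and 7.32 in NKT-like cells.

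Their promoters are shown because a motif through which interferons act on such genes was found in only some of them. The windows are from RefSeq (GRCm38.p6, chromosome 7) and span 250 bases before to 50 after the start site, 5' to 3' on the gene's strand, plus for Ifitm1 and minus for the others. Capitals mark matches on either strand to an interferon response motif, taken as a pair of TTTC blocks set 2 bases apart.
Ifitm1 (chr7:140967826-140968125): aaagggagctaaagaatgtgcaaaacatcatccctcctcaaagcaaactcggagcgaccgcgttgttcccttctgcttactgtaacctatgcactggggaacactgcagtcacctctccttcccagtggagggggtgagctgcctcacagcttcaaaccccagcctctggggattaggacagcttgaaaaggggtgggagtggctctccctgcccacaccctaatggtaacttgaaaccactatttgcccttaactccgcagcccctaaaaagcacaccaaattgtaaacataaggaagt
Ifitm2 (chr7:140955912-140956211): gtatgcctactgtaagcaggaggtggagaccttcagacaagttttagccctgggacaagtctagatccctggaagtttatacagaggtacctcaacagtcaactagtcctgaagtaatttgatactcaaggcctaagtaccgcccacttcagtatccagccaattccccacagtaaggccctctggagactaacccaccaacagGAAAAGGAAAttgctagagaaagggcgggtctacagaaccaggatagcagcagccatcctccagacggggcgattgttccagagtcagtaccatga
Ifitm3 (chr7:141010695-141010994): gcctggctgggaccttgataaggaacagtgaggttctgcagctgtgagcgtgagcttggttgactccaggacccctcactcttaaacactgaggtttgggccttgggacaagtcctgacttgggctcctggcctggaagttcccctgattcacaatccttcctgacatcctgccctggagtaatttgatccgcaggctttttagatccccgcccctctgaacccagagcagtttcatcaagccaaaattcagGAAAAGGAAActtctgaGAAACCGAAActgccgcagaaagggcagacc

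The window of Ifitm3 held 2 matches, GAAAAGGAAA at +3 to +12 and GAAACCGAAA at +20 to +29 from the start site. That of Ifitm2 held 1, GAAAAGGAAA at -46 to -37, and that of Ifitm1 held none. The motif was present in 3.44% of all 32851 promoters of this length. Not put in capitals are a STAT match (TTCTGAGAA, +14 to +22) and an AP-1 match (TGATTCA, -105 to -99) in Ifitm3. Neither of those motifs was in the windows of Ifitm1 and Ifitm2, and they were found in 8.3% and 7.81% of all promoters. The 3 windows were 47.8% to 48.4% identical to each other, which is about the identity of Gzmb with its neighbours.

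Of 32 type I interferon antiviral genes, 3 (9.38%) were called higher and none lower, with a median of -0.07. The shares of all genes were 3.34% and 0.934%. At an unadjusted p under 0.05 in the limma fit, 3 (9.38%) were higher and 8 (25%) lower, against 14.2% and 9.79% of all genes. The exonuclease gene Isg20 was 5.31-fold higher (log2 difference 2.41 ± 0.31 SE, q = 7.5e-04), the RNA sensor gene Ddx58 2.33-fold higher (log2 difference 1.22 ± 0.21 SE, q = 0.0036) and the antiviral GTPase gene Mx1 3.48-fold higher (log2 difference 1.80 ± 0.36 SE, q = 0.0087). None of these calls held without activated replicate 2, that of Ddx58 also ended without activated replicate 1, 10 of the 12 single omissions ended that of Mx1, and the other Ddx58 probe sets gave 1.05- to 1.16-fold. Ddx58 averaged 8.82 in NKT-like, 7.59 in activated and 9.37 in naive cells. Of 23 interferon gamma-induced GTPases and antigen processing genes none was called higher and 2 (8.7%) were called lower. At that unadjusted p, 4 (17.4%) were higher and 9 (39.1%) lower. The 2 called were Gbp2 and Iigp1. Gbp2, a guanylate-binding GTPase gene, read 6.84, 7.37, 7.85, 7.75 and 6.62 in NKT-like and 11.43 and 10.82 in activated cells. The cultures lay below the naive mean of 8.93 and the activated cells above it, and Gbp2 was 14.3-fold lower (log2 difference -3.84 ± 0.34 SE, q = 5.6e-05). Iigp1, an immunity-related GTPase gene, read 7.05, 6.13, 8.56, 6.12 and 5.60 in NKT-like and 10.75 and 10.43 in activated cells and was 14.9-fold lower (log2 difference -3.90 ± 0.62 SE, q = 0.0026), a call that ended without either activated array. Ifng itself was not called (q = 0.22). It read 8.43, 11.51, 10.54, 7.85 and 11.80 in NKT-like and 12.45 and 12.28 in activated cells, so every culture lay below both activated arrays but the cultures were widely spread. The receptor chain gene Ifngr1 was 5.02-fold higher (log2 difference 2.33 ± 0.34 SE, q = 0.0015) and lost its call without activated replicate 2. Its mean was 10.48 in NKT-like, 8.15 in activated and 9.84 in naive cells.

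Proteins that bind calcium, lipids or glycans made up another group of higher genes. Of 21 galectins, S100 proteins and annexins, 10 were higher and none lower (median 1.32), with 10 again without activated replicate 1 and 7 without activated replicate 2. S100a6 read 12.59, 13.29, 13.11, 13.38 and 12.99 in NKT-like and 7.79 and 6.76 in activated cells. S100a4, which encodes a calcium-binding protein linked to motility, read 12.45, 13.67, 13.30, 13.55 and 13.51 in NKT-like and 8.09 and 7.16 in activated cells. In both the activated cells were at or below the naive means of 8.38 and 7.88, save for S100a4 in activated replicate 1. S100a6 was 55.7-fold higher (log2 difference 5.80 ± 0.28 SE, q = 1.4e-06) and S100a4 50.9-fold higher (log2 difference 5.67 ± 0.41 SE, q = 1.6e-05). Lgals3, which encodes the glycan-binding galectin-3, read 13.57, 13.84, 14.05, 13.80 and 13.74 in NKT-like and 9.39 and 8.54 in activated cells, so that the cultures lay close together, and was 28.5-fold higher (log2 difference 4.83 ± 0.31 SE, q = 6.7e-06). Anxa1 was 27.2-fold higher (log2 difference 4.77 ± 0.41 SE, q = 5.0e-05), although its other probe set gave 1.09-fold and no call. Lgals1, which encodes galectin-1, was 3.85-fold higher (q = 1.1e-04), and S100a10 4.05-fold (q = 2.1e-04).

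Several genes of receptors, adhesion molecules and secreted proteins were also higher. P2ry14, a receptor for nucleotide sugars, read 10.84, 11.09, 11.54, 11.77 and 10.60 in NKT-like and 5.14 and 5.49 in activated cells and was 57.8-fold higher (log2 difference 5.85 ± 0.38 SE, q = 6.9e-06). Cxcr6, the receptor for the chemokine CXCL16, read 9.92, 11.08, 11.66, 11.21 and 11.06 in NKT-like and 5.83 and 5.14 in activated cells and was 45.2-fold higher (log2 difference 5.50 ± 0.62 SE, q = 3.3e-04). Naive cells held Cxcr6 at a mean of 8.67, above both activated arrays and below every culture. The prostaglandin receptor gene Ptger3 was 10.8-fold higher (log2 difference 3.43 ± 0.35 SE, q = 1.9e-04) through 1 probe set, while the other gave 1.06-fold. Ltb4r1, the leukotriene B4 receptor gene, was 9.76-fold higher (log2 difference 3.29 ± 0.51 SE, q = 0.0022) and lost its call without either activated array. In all, 4 of 31 chemokine and lipid mediator receptors (12.9%) were higher and 2 (6.45%) lower, against 3.34% and 0.934% of all genes. The chemokine genes Ccl5 (16.6-fold higher, log2 difference 4.06 ± 0.47 SE, q = 3.5e-04) and Cmtm7 (11.6-fold higher, log2 difference 3.53 ± 0.23 SE, q = 6.9e-06), the latter a chemokine-like membrane protein, were the 2 of 16 chemokine list members called, both higher. Ccl5 was high in naive cells too, at a mean of 12.40.

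Among 19 co-inhibitory receptors and ligands, 6 were higher and 3 lower. Havcr2, which encodes the inhibitory receptor TIM-3, read 9.36, 10.38, 10.81, 10.76 and 11.16 in NKT-like and 4.96 and 4.61 in activated cells and was 52.4-fold higher (log2 difference 5.71 ± 0.48 SE, q = 4.4e-05), with activated cells below the naive mean of 5.30. Entpd1, which encodes the ectonucleotidase CD39, was 5.11-fold higher (log2 difference 2.35 ± 0.42 SE, q = 0.0049), a call ended by any of 4 arrays. Pdcd1, which encodes PD-1, was not called (q = 0.62) and read 7.33, 8.81, 7.32, 6.91 and 8.79 in NKT-like and 8.17 and 7.54 in activated cells. Ctla4 read 8.62, 9.97, 10.06, 9.82 and 8.67 against 11.66 and 11.25 and was not called (q = 0.055), although the groups did not overlap. Secreted and adhesive products included Fgl2, a fibrinogen-like protein gene (38.3-fold higher, log2 difference 5.26 ± 0.32 SE, q = 5.7e-06), and Esm1, a proteoglycan gene (64.0-fold higher, log2 difference 6.00 ± 0.63 SE, q = 2.0e-04). Esm1 read 8.60, 10.53, 11.27, 11.30 and 10.70 in NKT-like and 4.58 and 4.38 in activated cells, with replicate 1 apart from the other cultures. The tight junction scaffold gene Tjp1 read 9.92, 10.48, 10.37, 9.96 and 10.13 in NKT-like and 5.09 and 4.72 in activated cells, so that the cultures lay close together, and was 38.5-fold higher (log2 difference 5.27 ± 0.21 SE, q = 7.1e-07). Adam8, a membrane protease gene, was 21.5-fold higher (log2 difference 4.43 ± 0.48 SE, q = 2.4e-04) and Emilin2, a matrix glycoprotein gene, 12.3-fold higher (log2 difference 3.62 ± 0.39 SE, q = 2.3e-04). Of 31 integrin and adhesion genes 7 (22.6%) were higher and 2 (6.45%) lower, against 3.34% and 0.934% of all genes. Many of these genes are among 27 secreted and surface candidates that the study singled out on these samples. Of these 19 were higher and 1 lower (median 3.43), which for that reason is not independent evidence of their direction.

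Regulators of effector and memory fate moved both ways. Of 34, 7 were higher and 4 lower, with a median of 0.05. Id2, which blocks E proteins in effector cells, read 11.64, 12.10, 12.17, 12.36 and 12.06 in NKT-like and 9.18 and 8.56 in activated cells and was 9.18-fold higher (log2 difference 3.2 ± 0.20 SE, q = 6.7e-06). Its relative Id3, tied to the memory fate, read 5.85, 5.50, 5.86, 5.41 and 5.33 in NKT-like and 7.53 and 6.90 in activated cells and was 3.08-fold lower (log2 difference -1.62 ± 0.20 SE, q = 6.3e-04). The pair thus moved in opposite directions with no overlap between the groups in either gene. Prdm1, which encodes Blimp-1, read 8.49, 9.0, 9.88, 9.72 and 8.91 in NKT-like and 6.68 and 6.71 in activated cells and was 5.68-fold higher (log2 difference 2.50 ± 0.32 SE, q = 6.3e-04), a call that ended without activated replicate 2. Bach2, its counterpart, read 8.11, 8.09, 7.19, 8.13 and 6.53 in NKT-like and 10.76 and 10.10 in activated cells and was 7.06-fold lower (log2 difference -2.82 ± 0.41 SE, q = 0.0016), a call that ended without either activated array, with other probe sets at 0.178- and 0.796-fold. Mycn, a MYC family gene, was 18.7-fold higher (log2 difference 4.23 ± 0.34 SE, q = 3.5e-05), while its other probe sets gave 1.04- to 1.99-fold. Epas1, which encodes the hypoxia-inducible factor HIF-2alpha, was 42.8-fold higher (log2 difference 5.42 ± 0.73 SE, q = 9.5e-04) and lost its call without activated replicate 2, and its other probe set gave 6.19-fold and no call. Irf4, induced by T cell receptor signals, was 3.89-fold lower (log2 difference -1.96 ± 0.34 SE, q = 0.004), a call lost without either activated array, and its other probe set gave 0.629-fold and no call. Tbx21, which encodes T-bet, was not called (q = 0.37), with 9.34, 9.19, 8.44, 9.17 and 10.10 in NKT-like and 10.01 and 9.30 in activated cells.

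Cell cycle inhibitors were higher. Of 25 CDK inhibitors, D cyclins and p53 targets, 12 were higher and none lower (median 0.82), with 10 without activated replicate 1 and 5 without activated replicate 2. Cdkn2b, which encodes the CDK4/6 inhibitor p15, read 10, 10.47, 9.66, 8.96 and 10.35 in NKT-like and 5.82 and 5.68 in activated cells and was 17.6-fold higher (log2 difference 4.14 ± 0.37 SE, q = 6.5e-05). Cdkn2a, its neighbour, read 9.33, 9.39, 8.40, 7.66 and 10.17 in NKT-like and 5.23 and 5.68 in activated cells and was 11.6-fold higher (log2 difference 3.54 ± 0.53 SE, q = 0.0018), a call lost without either activated array. Cdkn1a, which encodes p21, read 11.83, 12.42, 12.63, 12.50 and 12.19 in NKT-like and 9.98 and 9.75 in activated cells, and was 5.45-fold higher (q = 7.2e-05). These 3 inhibitors did not overlap between the groups, and both Cdkn2 genes were lowest among the cultures in replicate 4. The retinoblastoma relative Rbl2 was 12.2-fold higher (log2 difference 3.61 ± 0.45 SE, q = 5.9e-04), with activated arrays far apart at 7.55 and 5.52. The p53 target Zmat3 was 7.16-fold higher (log2 difference 2.84 ± 0.26 SE, q = 7.5e-05). Pro-apoptotic BH3-only genes followed in the BCL2 list, where 4 of 30 (13.3%, against 3.34% of all genes) were higher and none lower. They included Pmaip1 (5.54-fold higher, log2 difference 2.47 ± 0.33 SE, q = 9.4e-04), Bbc3 (3.86-fold higher, log2 difference 1.95 ± 0.30 SE, q = 0.0021) and Bcl2l11 (3.2-fold higher, log2 difference 1.68 ± 0.29 SE, q = 0.0044), and none of the 4 calls held without activated replicate 2, nor that of Bcl2l11 without activated replicate 1 or NKT-like replicate 5. Naive cells averaged 9.36 for Bbc3 and 10.92 for Bcl2l11. The NKT-like means were 9.64 and 11.49 and the activated means 7.69 and 9.81. Neither gene was called between NKT-like and naive cells (q = 0.22 and 0.074). Pmaip1 averaged 4.86 in naive, 5.98 in activated and 8.45 in NKT-like cells.

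Genes of DNA synthesis and division had differences below 0 for the most part, few of them called. Of 38 DNA replication genes, 36 had a difference below 0 and the median was -0.80, but 3 were called, all lower. At an unadjusted p under 0.05, 23 (60.5%) were lower and none higher, against 9.79% and 14.2% of all genes. The 3 called genes were the uracil glycosylase gene Ung (3.23-fold lower, log2 difference -1.69 ± 0.33 SE, q = 0.0071), the ligase gene Lig1 (1.90-fold lower, log2 difference -0.93 ± 0.16 SE, q = 0.0047) and the clamp gene Pcna (1.77-fold lower, log2 difference -0.83 ± 0.17 SE, q = 0.0087), and all 3 calls ended without activated replicate 1. Of the 12 single omissions 9 ended the call of Ung and 9 that of Pcna, and NKT-like replicate 5 also ended that of Lig1. Of 37 mitosis genes 35 lay below 0 (median -0.67) and none was called by the limma fit, with 18 (48.6%) lower and none higher at that p. Mki67, the proliferation marker, read 10.64, 10.45, 9.21, 10.78 and 9.46 in NKT-like and 11.37 and 10.79 in activated cells. The median of the replication list was -0.39 without activated replicate 1 and -1.07 without activated replicate 2, and that of the mitosis list -0.40 and -1.06. Ribosome biogenesis genes had the same pattern, with 0 of 39 called by the limma fit, 19 (48.7%) lower and none higher at that p, and a median of -0.66. After quantile normalization 6 of the 39 were lower.

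Il2, the growth factor that activated T cells make, was lower. It read 5.84, 5.50, 5.66, 5.63 and 5.88 in NKT-like and 10.07 and 9.70 in activated cells, so that the cultures lay close together just below the naive mean of 5.99 and both activated arrays lay far above them. Il2 was 18.2-fold lower (log2 difference -4.18 ± 0.14 SE, q = 1.6e-07). Of 31 cytokine genes 6 (19.4%) were lower and 1 (3.23%) higher, against 0.934% and 3.34% of all genes. Lta, which encodes lymphotoxin alpha, read 8.61, 8.66, 8.60, 7.25 and 8.42 in NKT-like and 11.37 and 10.93 in activated cells and was 7.18-fold lower (log2 difference -2.84 ± 0.33 SE, q = 4.0e-04). Lif, a gp130 cytokine gene, was 6.92-fold lower (log2 difference -2.79 ± 0.26 SE, q = 8.6e-05), while its other probe set gave 0.953-fold. Tnfsf11, which encodes RANKL, was 6.89-fold lower (log2 difference -2.78 ± 0.51 SE, q = 0.0054), a call lost without either activated array or without NKT-like replicate 3, and its other probe set gave 0.678-fold and no call. Il10, an anti-inflammatory cytokine gene, was the one higher. It read 8.86, 10.31, 12.33, 12.21 and 10.12 in NKT-like and 6.41 and 6.17 in activated cells and was 22.3-fold higher (log2 difference 4.48 ± 0.77 SE, q = 0.0039), a call lost without either activated array. The IL-2 receptor genes were not called. Il2ra read 10.76, 11.52, 11.59, 11.91 and 11.35 against 10.87 and 10.42, with overlap, and Il2rb 10.99, 11.22, 11.26, 11.30 and 12.56 against 10 and 9.19, without overlap (q = 0.066 and 0.011). In the list of IL-2 receptor and JAK-STAT genes, Ifngr1 was higher and Stat5a lower (2.53-fold lower, log2 difference -1.34 ± 0.23 SE, q = 0.0044) of 26, the latter with a call that ended without activated replicate 1, NKT-like replicate 4 or NKT-like replicate 5 and another probe set at 0.664-fold with no call. Each was 3.85% of the list, where the shares of all genes were 3.34% higher and 0.934% lower. At an unadjusted p under 0.05 in the limma fit, 10 (38.5%) were higher and 2 (7.69%) lower, against 14.2% and 9.79% of all genes.

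Several surface protein genes were lower as well. Cd200, an immunoglobulin superfamily ligand, read 5.58, 6.44, 5.02, 5.20 and 6.00 in NKT-like and 10.37 and 10.01 in activated cells and was 23.3-fold lower (log2 difference -4.54 ± 0.34 SE, q = 1.8e-05). Cd24a, a heavily glycosylated surface protein gene, read 4.77, 5.70, 6.93, 6.28 and 5.57 in NKT-like and 10.71 and 10.23 in activated cells and was 24.6-fold lower (log2 difference -4.62 ± 0.50 SE, q = 2.4e-04). Cd200 in the cultures lay around the naive mean of 5.99, whereas Cd24a lay far below its naive mean of 10.84, which was near the activated level. Btla, an inhibitory receptor gene, was 9.01-fold lower (log2 difference -3.17 ± 0.24 SE, q = 2.4e-05) and Cd83 8.28-fold lower (log2 difference -3.05 ± 0.22 SE, q = 1.4e-05), with naive means of 9.09 and 6.69 against activated means of 9.56 and 8.50. The scavenger receptor family genes Cd5 (8.29-fold lower, log2 difference -3.05 ± 0.55 SE, q = 0.0052) and Cd6 (5.85-fold lower, log2 difference -2.55 ± 0.33 SE, q = 8.2e-04), which restrain T cell receptor signals, were both lower, Cd5 with a call that either activated array or cultured CD4+ replicate 2 ended. Their naive means were 9.20 and 9.28, against activated means of 10.22 and 10.50. Nrn1 (13-fold lower, log2 difference -3.70 ± 0.28 SE, q = 1.9e-05) and Lad1 (11.1-fold lower, log2 difference -3.47 ± 0.19 SE, q = 2.7e-06) were low in naive cells and in the cultures alike. B cells also express Cd24a, Cd83, Btla and Cd200, and the B cell and MHC class II marker means given above were higher in the activated samples. Their part in these 4 differences was not tested.

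Naive T cell genes that activation had left in place were lower after culture. Ccr7, the receptor that guides T cells to lymph nodes, read 6.44, 6.44, 6.18, 6.43 and 6.55 in NKT-like and 10.71 and 9.90 in activated cells and was 14.9-fold lower (log2 difference -3.90 ± 0.43 SE, q = 2.8e-04). Dapl1 read 5.25, 5.46, 5.35, 5.49 and 5.16 in NKT-like and 9.33 and 8.98 in activated cells and was 14.1-fold lower (log2 difference -3.82 ± 0.19 SE, q = 1.7e-06). In both the cultures lay close together, and activated cells stayed near the naive means of 9.79 and 10.01. Actn1, which encodes the cytoskeletal linker alpha-actinin, was 14.1-fold lower (log2 difference -3.82 ± 0.31 SE, q = 3.8e-05), and its other probe sets gave 0.255- to 0.470-fold. Rgcc (12.9-fold lower, log2 difference -3.69 ± 0.32 SE, q = 5.1e-05) and the transcription factor gene Nfix (7.49-fold lower, log2 difference -2.91 ± 0.40 SE, q = 0.0012) followed the same course. Nfix read 9.1 and 7.78 on the activated arrays, and its 4 other probe sets gave 0.406- to 1.17-fold, 2 of them called lower. In the list of 27 naive and memory genes 5 were lower and 1 higher (median -0.34). The higher one was Cd55, a complement regulator gene (6.34-fold higher, log2 difference 2.66 ± 0.28 SE, q = 2.0e-04). Other naive genes were lower than in naive cells in both groups and were not called between them, although the groups did not overlap. S1pr1, the egress receptor gene, averaged 10.01 in naive cells and read 6.80, 6.47, 6.66, 6.63 and 6.80 in NKT-like and 7.04 and 6.99 in activated cells (q = 0.43). Il7r, the IL-7 receptor gene, averaged 12.49 in naive cells and read 8.73, 9.93, 9.77, 9.61 and 9.17 in NKT-like and 8.50 and 7.82 in activated cells (q = 0.016).

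**Figure D4:**
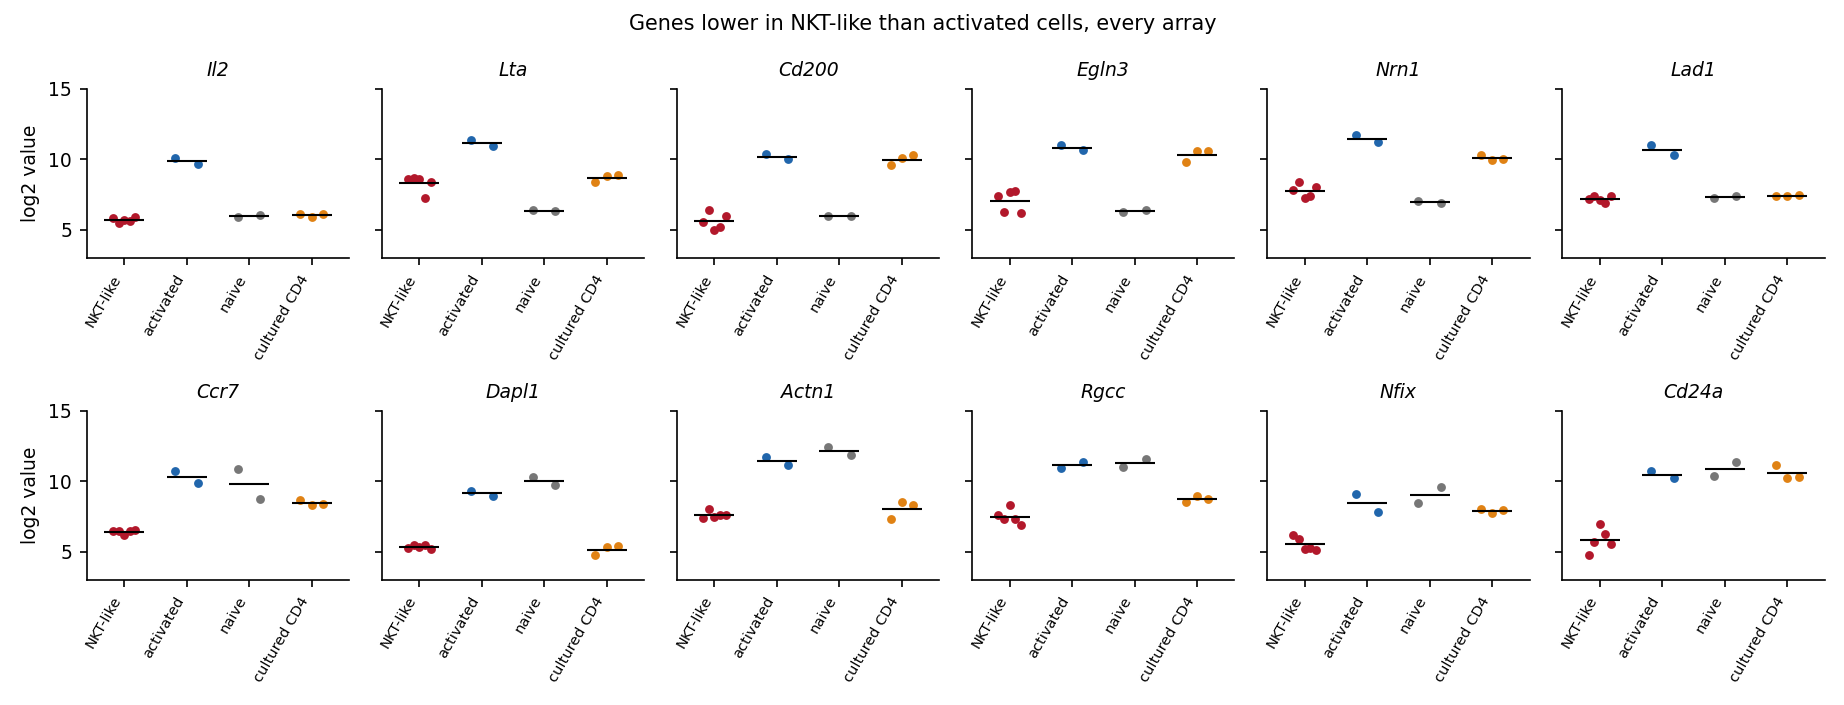
Log2 signal of 12 genes lower in NKT-like than in activated cells, on every array of the 4 groups; points are arrays and bars group means. Il2, Lta, Cd200, Egln3, Nrn1 and Lad1 are high in activated and low in naive cells, whereas Ccr7, Dapl1, Actn1, Rgcc, Nfix and Cd24a are high in both, and all 12 are lower in NKT-like than in activated cells. Lta in NKT-like cells, at a mean of 8.31, stays above its naive mean of 6.35.

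Genes that respond at once to receptor signals split. Of 33 immediate early genes, 6 were higher and 5 lower. Spry1, a feedback inhibitor of the MAP kinase pathway, read 7.0, 6.79, 6.93, 6.66 and 6.89 in NKT-like and 9.18 and 8.82 in activated cells and was 4.43-fold lower (log2 difference -2.15 ± 0.15 SE, q = 1.2e-05). The zinc finger genes Egr2 (5.65-fold lower, log2 difference -2.50 ± 0.39 SE, q = 0.0023) and Egr3 (3.34-fold lower, log2 difference -1.74 ± 0.30 SE, q = 0.0041) were lower, each with a call that ended without either activated array, and Egr3 with a second probe set at 1-fold. The nuclear receptor gene Nr4a1 was 4.0-fold lower (log2 difference -2.0 ± 0.36 SE, q = 0.0052), a call that 6 of the 12 single omissions ended. In contrast Gadd45g, a stress-induced growth arrest gene, read 10.99, 9.94, 10.42, 10.16 and 10.97 in NKT-like and 7.88 and 6.84 in activated cells and was 8.79-fold higher (log2 difference 3.14 ± 0.41 SE, q = 8.0e-04). The MAP kinase phosphatase genes Dusp1 (5.07-fold higher, log2 difference 2.34 ± 0.44 SE, q = 0.0063), Dusp5 (3.68-fold higher, q = 8.6e-04) and Dusp6 (4.48-fold higher, log2 difference 2.16 ± 0.34 SE, q = 0.0025) were also higher. None of the 6 higher calls held without activated replicate 2, and 4 of the 12 single omissions ended that of Dusp1. Among 28 T cell receptor and proximal signalling genes, the phosphatase gene Ptpn22 (2.33-fold higher, log2 difference 1.22 ± 0.17 SE, q = 0.0012), the kinase gene Prkcq (2.33-fold higher, log2 difference 1.22 ± 0.19 SE, q = 0.0025) and Cd3e were higher, and all 3 calls ended without activated replicate 2 too. In that order, these 3 genes averaged 10.37, 11.78 and 10.68 in naive cells. The activated means were 9.48, 10.23 and 9.78 and the NKT-like means 10.7, 11.45 and 10.77. The 2 lower members of this list were Cd5 (8.29-fold) and Cd6 (5.85-fold), described above. No NF-kappaB subunit, inhibitor or target was called by the limma fit (0 of 17, with 1 or 5.88% higher and 3 or 17.6% lower at an unadjusted p under 0.05, where the shares of all genes were 14.2% and 9.79%).

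Metabolic lists moved to unlike extents. Of 35 genes of glycolysis, hypoxia and the pentose phosphate pathway, 1 (2.86%) was called higher and 3 (8.57%) lower (median -0.40). The shares of all genes were 3.34% and 0.934%. At an unadjusted p under 0.05 in the limma fit, 15 (42.9%) were lower and 2 (5.71%) higher, against 9.79% and 14.2% of all genes. Egln3, a prolyl hydroxylase gene that marks HIF activity, read 7.37, 6.24, 7.65, 7.79 and 6.19 in NKT-like and 10.99 and 10.69 in activated cells and was 13.8-fold lower (log2 difference -3.79 ± 0.43 SE, q = 3.5e-04). Pdk1, which encodes a kinase that holds pyruvate back from mitochondria, read 9.36, 8.86, 8.72, 8.85 and 8.18 in NKT-like and 10.95 and 10.32 in activated cells and was 3.57-fold lower (log2 difference -1.84 ± 0.26 SE, q = 0.0014). Tpi1, a glycolytic enzyme gene, was 3.17-fold lower (log2 difference -1.66 ± 0.26 SE, q = 0.0023), a call lost without either activated array. The gene called higher was Pgls (3.22-fold higher, log2 difference 1.69 ± 0.30 SE, q = 0.0052), a call ended by any of 6 single omissions. Cholesterol and fatty acid synthesis (0 of 29 called by the limma fit, 5 or 17.2% higher and 4 or 13.8% lower at an unadjusted p under 0.05) and oxidative phosphorylation (0 of 36, with 4 or 11.1% higher and 2 or 5.56% lower) lay near the shares of all genes at that p, 14.2% and 9.79%, and had medians of -0.12 and 0.05. Secretory and lysosomal genes leaned upward: 3 of 28 ER chaperone genes (10.7%), among them Sec24d (3.2-fold higher, log2 difference 1.68 ± 0.23 SE, q = 0.0012), and 5 of 29 lysosomal genes (17.2%), among them the cholesterol exporter Npc1 (3.02-fold higher, log2 difference 1.59 ± 0.28 SE, q = 0.0047), were higher, none was lower, and none of these 8 calls held without activated replicate 2, nor that of Npc1 without NKT-like replicate 3 or 4. Polycomb and DNA methylation enzymes had 1 of 24 (4.17%) higher and 3 (12.5%) lower, with Ezh2, the histone methyltransferase gene, 2.63-fold lower (log2 difference -1.40 ± 0.26 SE, q = 0.0055) and its relative Ezh1 2.58-fold higher (log2 difference 1.37 ± 0.26 SE, q = 0.007), while the other Ezh1 probe sets gave 1.03- to 1.13-fold and no call. These calls rested on many of the arrays, 6 of the 12 single omissions ending that of Ezh2 and 9 that of Ezh1. Ezh1 averaged 8.51 in NKT-like, 7.14 in activated and 8.39 in naive cells.

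Of 16 regulatory T cell markers, 2 (12.5%) were called higher and none lower, against 3.34% and 0.934% of all genes. At an unadjusted p under 0.05 in the limma fit, 3 (18.8%) were higher and 4 (25%) lower, against 14.2% and 9.79% of all genes. The 2 called were Entpd1 and the capping protein gene Capg (3.40-fold higher, log2 difference 1.76 ± 0.31 SE, q = 0.0046). The call of Capg ended without activated replicate 2 or any of NKT-like replicates 3, 4 and 5. Its other probe set gave 1.54-fold and no call. Foxp3, the transcription factor that defines those cells, read 5.05, 5.30, 5.22, 5.35 and 5.24 in NKT-like and 5.34 and 5.05 in activated cells, a level at which the groups overlapped and the naive mean was 5.20.

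**Figure D5:**
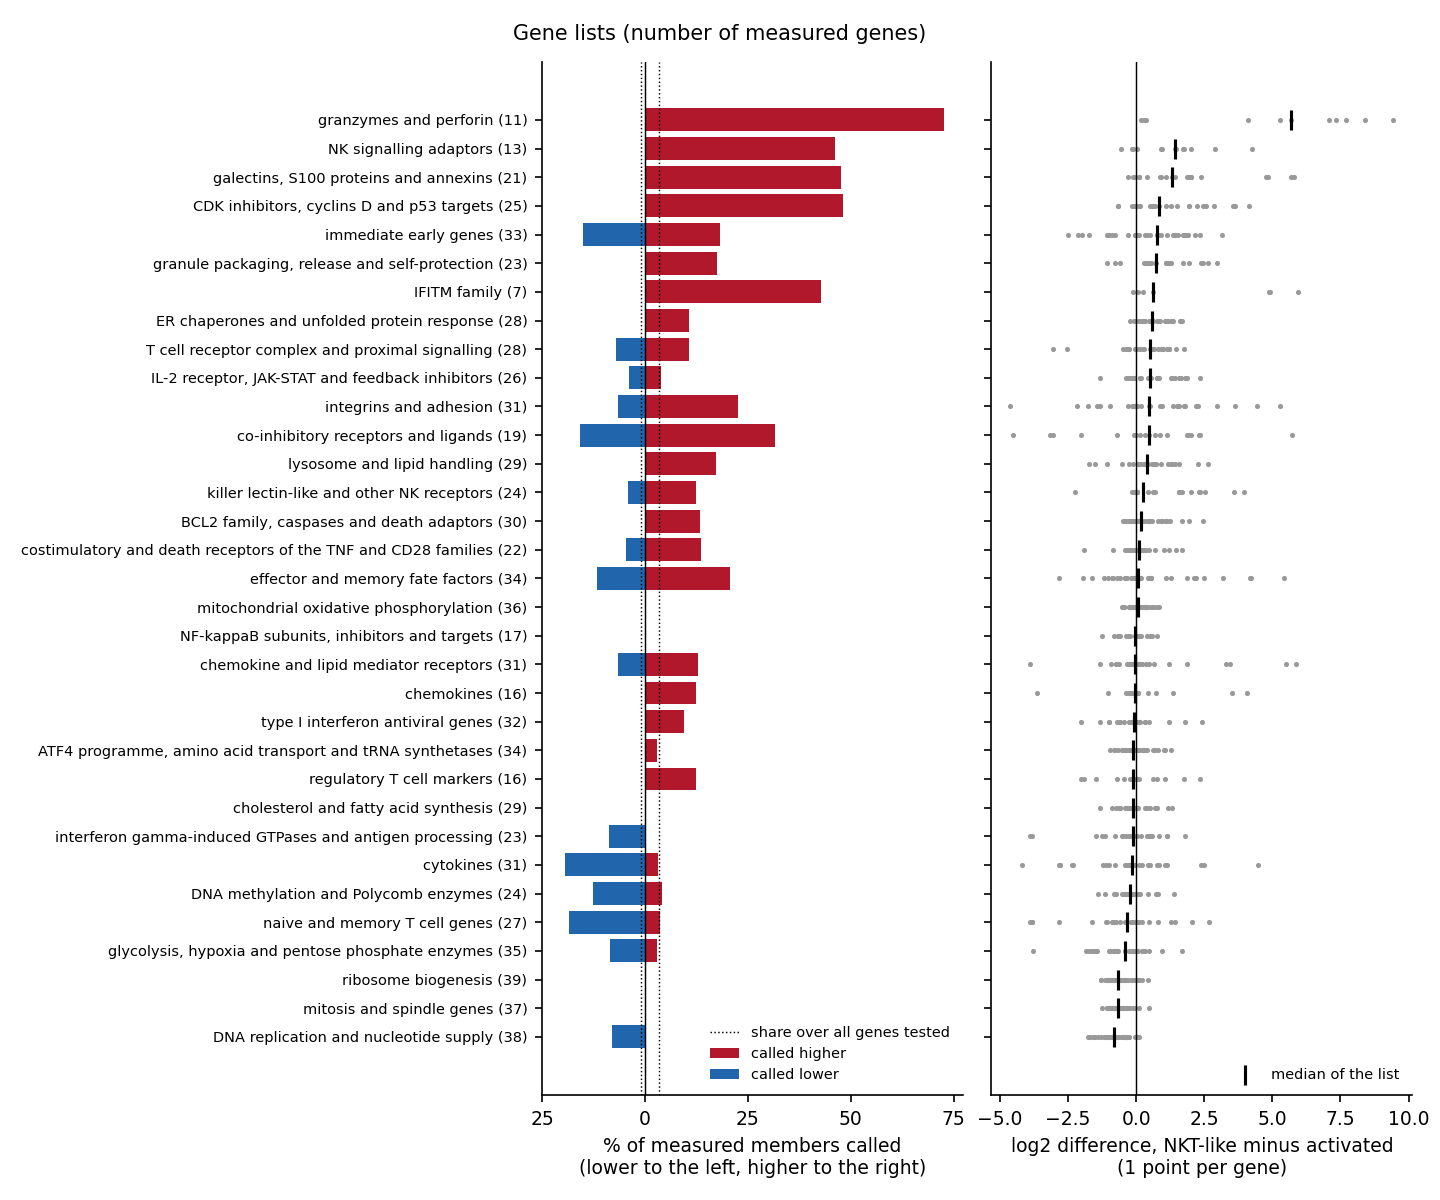
Gene lists with the share of their measured members called higher or lower in NKT-like cells (left, percent, with dotted lines at 3.34% and 0.934%, the shares over all genes) and the log2 difference of each member (right, points) with the list median. Granzymes and perforin have the highest median, at 5.67, and DNA replication genes the lowest, at -0.80.

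The cultured CD4+ cells give a further view of the called genes. The comparison of cultured CD4+ with naive CD8+ cells shares no array with that of NKT-like with activated cells. Both comparisons use the same estimate of each gene's spread, made over all 12 arrays. Genes of small spread are thus called more readily in both, and the overlap of the calls is not independent. In cultured CD4+ against naive CD8+ cells 2102 genes (11.6% of all) were higher and 1016 (5.58%) lower. Of the 607 genes higher in NKT-like cells, 166 (27.3%, or 7.90% of the 2102) were higher and 42 (6.92%, or 4.13% of the 1016) lower in cultured CD4+ cells. Of the 170 lower genes, 56 (32.9%, or 2.66%) were higher there and 29 (17.1%, or 2.85%) lower. The cell lineage differs as well as the culture in that second comparison. S100a6, Lgals3 and Id2, at means of 13.05, 12.62 and 11.66, were high in cultured CD4+ as in NKT-like cells. Tjp1 (5.10), Fgl2 (4.76), Gzmk (6.59), Khdc1a (4.72) and Fcer1g (6.85) were at or below the naive means in cultured CD4+ cells. Among the lower genes Cd200 (9.99), Gbp2 (12.36) and Lif (10.89) were high in cultured CD4+ cells, whereas Il2 (6.07) and Dapl1 (5.14) were low there too.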

How the data were processed

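Total RNA of splenic T cells, labelled by an Eberwine protocol, was hybridized to Affymetrix whole-genome mouse arrays, 12 in all. The deposited values are log2 signals that the authors made with RMA (version not given in the sources used here); whether all arrays were normalized together is not stated, and the number of arrays limits the precision. The 64 control probe sets were left out and 45037 tested, of which 34945 had 1 gene symbol, 932 several and 9160 none on the platform annotation given. A gene was read through its probe set with the highest mean over 12 arrays, avoiding cross-hybridizing types (names ending in _s_at or _x_at) where possible. A 4-group model was fitted with limma 3.58.1 in R 4.3.3 (8 residual and 3.03 prior degrees of freedom), with Storey q-values over all probe sets, and the method was tested on simulated data. There 52.2% of 67 changes of 2-fold were called, 83.6% of those of 4-fold and 97% of those of 8-fold, with 0 false calls. Genes not called here can thus include changes of about 2-fold. The simulation gave all groups the same noise, whereas the activated arrays differed more than the NKT-like arrays. The 42 gene lists were counted without a test of their own. Named genes were the 20 largest called differences per direction without overlap, up to 4 per list and direction, lineage markers and members that define a list. Prf1, Cdkn1a, Lgals1, S100a10 and Dusp5, called but beyond that number, were named after their values were seen. The groups, lists and members were chosen with earlier results of these data known. Alternatives covered the arrays in the fit, normalization, filters, weights, thresholds, a replicate block and each array left out. Promoters came from RefSeq.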

Additional observations from a re-analysis of the deposited data

Results flagged for a closer look

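Among 130 sets of 5 NKT-like values tested for a lone array (126 named genes and 4 array measures), 6 had a lowest or highest value whose gap to the nearest, divided by the range, passed the critical value of 0.71. Chance alone passes about 1 set in 20. Esm1 was 8.60 in NKT-like replicate 1 against 10.53 to 11.30 in the others (gap over range 0.715). Replicate 4 was apart for Lta (7.25 against 8.42 to 8.66, 0.83), for Tnfsf11 (4.67 against 6.03 to 6.52, 0.735) and for Sesn2 (8.04 against 8.45 to 8.57, 0.774). Atp6v0d1 was 10.78 in replicate 3 against 9.94 to 10.15 (0.75). The log2 difference between the 3' and 5' control probe sets of Gapdh was 0.12 in replicate 5 against 1.28 to 1.73 (0.72). Leaving out any 1 NKT-like culture did not end the calls of Esm1, Lta or Sesn2. That of Sesn2 ended without activated replicate 2, and 6 of the 12 single omissions ended that of Atp6v0d1.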

How the results depend on the processing

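Against 831 higher and 258 lower probe sets, the 7 arrays alone gave 373 and 137, array weights 117 and 58, a q of 0.05 gave 1507 and 551, and genes in place of probe sets 517 and 117. No minimum fold gave 985 and 441, and quantile normalization 822 and 442. Benjamini-Hochberg adjustment (680 and 212), a trended robust prior (954 and 296), a filter on low values (1116 and 342), median centring (715 and 193) and cyclic loess (828 and 322) stayed within 1.5 times. Leaving out 1 array at a time gave 195 to 1109 higher and 189 to 314 lower, with the extremes of the higher count without activated replicate 2 (195) and without activated replicate 1 (1109). The deviations of same-numbered NKT-like and activated arrays from their group means had r of -0.04 and 0 over the 2 pairs. The 2 activated arrays deviate from their mean as mirror images, so these values cannot exclude a batch or culture shared by number. With the replicate number as a block, 115 were higher and 43 lower, and 75 of the 123 called named genes lost their call. Array weights ended 85 of these calls, the 7 arrays alone 50, leaving out activated replicate 2 ended 65 and leaving out activated replicate 1 ended 37. The difference of Cd4, 0.03, reversed to -0.02 after quantile normalization, cyclic loess or the block, -0.01 without NKT-like replicate 3 and -0.29 without activated replicate 1 (0.35 without activated replicate 2), and that of Cd8b1, 0.30, to -0.18 under the block; neither was called. The cause of these changes was not tested. Signals near the top of the scale, as for Gzmb and Gzma in NKT-like cells, or near the bottom, as for Gzmd in activated cells, limit what differences can be seen.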

Other observations

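The 5 NKT-like cultures were not alike in their NK receptors. Klra5, which encodes an inhibitory receptor of the Ly49 family, was at 11.83, 12.05 and 11.93 in replicates 1, 2 and 5 and at 8.17 and 7.32 in replicates 3 and 4. Klrc1, which encodes NKG2A, was at 10.92, 11.43 and 10.76 and at 8.46 and 7.63 in the same order, and Klrk1, which encodes NKG2D, at 11.12, 11.08 and 11.38 and at 9.13 and 8.15. None of these genes was called against activated cells, although they were 15.7-, 5.83- and 3.18-fold higher (q = 0.045, 0.082 and 0.14). For Klra5 all 5 cultures lay above both activated arrays, and for Klrc1 and Klrk1 the groups overlapped. Replicates 3 and 4 were instead the highest for Il10 (12.33 and 12.21 against 8.86, 10.31 and 10.12), for the cytokine gene Il24 (11.86 and 11.11 against 8.17, 7.88 and 8.12) and for the transcription factor gene Maf (11.27 and 10.98 against 8.56, 8.72 and 7.16). Xcl1, a chemokine gene, was at 6.44 in both replicates 3 and 4 and at 7.79, 9.89 and 10.91 in the others. The genes were picked for their spread after the values were seen, and the labels give no subgroup of cultures, so no test was made. Over all genes the SD among the NKT-like cultures had a median of 0.14 and a 95th percentile of 0.51, and it was 1 or more for 96 genes, of which 9 were called higher and 1 lower.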
